A study of Mus musculus with 3 samples.

Results

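The genes described here encode histone deacetylases, Polycomb proteins, histone acetyltransferases, lysine demethylases and lysine methyltransferases with a core cofactor. The members were a list of 46 gene symbols, found on the array through the RefSeq accession of each probe or through the gene name, current or older, in the authors' deposited table. All 46 were measured, among 23555 genes and other transcripts tested, by 66 probes, of which 63 passed the filter on dim probes. RNA of mouse embryos at stage E8.75 was compared on 3 Agilent arrays with 2 colours, each of which held 1 RNA labelled Brpf1-deficient in Cy5 and 1 RNA labelled wild-type in Cy3. The arrays form 1 group of 3 embryo pairs. The labels give neither the Brpf1 allele, nor the strain, nor the number of embryos behind each RNA, and name no treatment. The p-values below thus rest on the spread of these 3 pairs, which may be partly technical. Limma also drew the spread of each gene towards that of all genes tested. In RNA of whole embryos, fewer cells of a type and less RNA per cell cannot be told apart.

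Brpf1 is a chromatin reader around which acetyltransferases of the MYST family assemble. The enzymes described here write, remove or read the same kinds of marks. Polycomb repressive complex 2 methylates histone H3 at lysine 27 through Ezh1 or Ezh2. Polycomb repressive complex 1 ubiquitinates histone H2A through Ring1 or Rnf2 and compacts chromatin, and it helps to keep Hox genes silent outside their domains in the embryo. Deacetylases remove the acetyl groups that acetyltransferases such as Ep300 and Crebbp add, and lysine demethylases reverse the work of the methyltransferases.

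All values called ratios are log2 ratios of Cy5 over Cy3 after loess normalization, so a ratio above 0 means that the channel labelled Brpf1-deficient was the brighter one. Normalized intensities are the same values turned back to a linear scale for each channel, in arbitrary units, and they are not compared between genes. Errors of ratios are limma standard errors (SE, moderated, n = 3 pairs), and adjusted p-values are limma's, with Benjamini-Hochberg adjustment over all 23555 genes. Where the pairs of a gene lay close together, the moderated SE mostly reflects the spread of other genes. Suz12, for example, had an SD over pairs of 0.006 and an SE of 0.08.

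The share of spots well above background was 50.7% to 53.3% in Cy5 and 55.6% to 61.1% in Cy3. Brpf1 itself, the gene that should be disrupted, was brighter in the channel labelled Brpf1-deficient, with normalized intensities of 9391, 6048 and 4106 in Cy5 and 2338, 2246 and 1966 in Cy3 in pairs 1, 2 and 3. The channels did not overlap, and the ratio was 1.499 ± 0.19 (SE, n = 3, limma adjusted p = 0.0405). This goes against the labels unless the probe lies outside the disrupted part, which was not analysed here. It also passed only in some settings: with a loess span of 0.02 the limma adjusted p was 0.273, and without pair 1, 2 or 3 it was 0.2001, 0.102 and 0.105. Every direction given below is therefore that of a labelled channel. Cy5 always carried the RNA labelled Brpf1-deficient, and dye and genotype cannot be told apart. The Y-linked genes Ddx3y and Eif2s3y had ratios of 5.93 and 6.78 in pair 1, -0.23 and 0.02 in pair 2, and -5.23 and -5.49 in pair 3. The Y-linked gene Uty had 1.09, 0.85 and -1.50, so all 3 genes had opposite signs in pairs 1 and 3. Of the visceral endoderm and yolk sac markers, 19 of 20 were tested, all 19 had a mean ratio above 0, and 1 passed. Among all genes tested, 54.4% had a mean ratio below 0 and 1.38% passed. These 19 were bright, with a median log2 intensity of 15.4 against 10.6 over all genes tested, and Afp and Rbp4 lay above 17. The part of brightness in these ratios was not tested. The summed normalized intensity of these markers was 1063700 to 1546270 in Cy5 and 712349 to 1120360 in Cy3. The decidua and uterus markers (12 of 12 tested) had median ratios of -0.18, -0.60 and 0.43 in pairs 1, 2 and 3, with sums of 54862 to 96814 in Cy5 and 63850 to 98795 in Cy3. For the primitive erythroid markers (11 of 12 tested, 1 passed) the medians were -0.57, 0.50 and 0.14, with sums of 570587 to 958168 in Cy5 and 256184 to 977349 in Cy3. The gene that passed, Hbb-bh1, had a mean log2 intensity of 17.6, and Hbb-y and Hba-x had 17.3 and 17.4. The part of brightness was not tested here either. No tested marker was listed at 0, and the part of these tissues in the ratios below was not tested.

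None of the 46 genes passed an adjusted p of 0.05, whereas 1.38% of all genes tested did (1.29% with a higher and 0.0934% with a lower signal in Cy5). Most called genes were very bright, and no member was: 280 of the 326 calls lay above a mean log2 intensity of 17, and the brightest member, Hdac1, was at 15.95. At an unadjusted p below 0.05 there were 6 members, 5 with a ratio below 0 (Bmi1, Hdac6, Hdac11, Kdm3a and Setdb1) and 1 above (Kat2b). That is 13.04% of the members, against 17.3% of all genes at the same limit (8.23% above and 9.12% below 0), so the share of members at this limit was not above that of all genes. The share depends on brightness. Between 12 and 16 in mean log2 intensity, 220 of 7422 genes were above and 720 below 0 at this limit, and 4 of 31 members, all below.

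**Figure D1:**
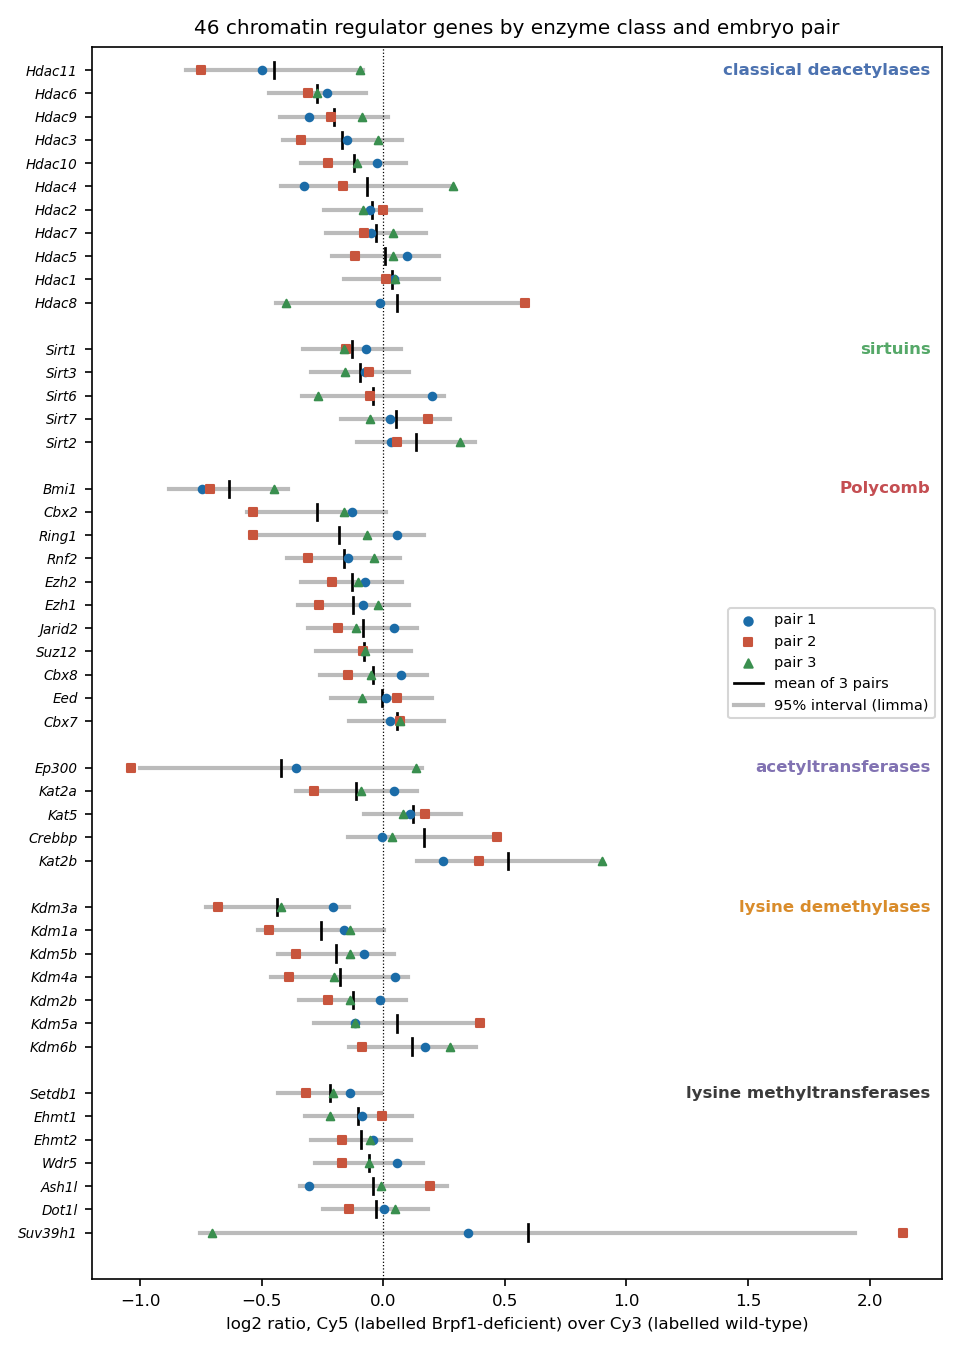
Log2 ratio of Cy5 (labelled Brpf1-deficient) over Cy3 (labelled wild-type) on the horizontal axis for each of the 46 genes, grouped by enzyme class. Coloured symbols are pairs 1 to 3, black ticks the mean, and grey lines the 95% interval from limma. Bmi1 lies below 0 in all 3 pairs, Kat2b above 0 in all 3, and Suv39h1 runs from -0.70 to 2.14.

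The ratios of the members were small. Their median was -0.09, against -0.02 over all genes tested, and 35 of 46 lay within 0.2 of 0 (76.1%, against 69.5% of all genes). Between 12 and 16 in mean log2 intensity the share within 0.2 was 77.4% of 31 members and 76.7% of all genes. The mean ratio was below 0 for 34 members (73.9%) and above 0 for 12, against 54.4% of all genes below 0 and 65.2% of those with a mean log2 intensity from 12 to 16. In that range 24 of 31 members were below 0 (77.4%). All 3 pairs were below 0 for 20 members (43.5%), against a background of 23.8% of all genes, and above 0 for 5 members (10.9%), against 19.7%. Part of that background depends on brightness. Of the 7422 genes between 12 and 16 in mean log2 intensity, 32.9% were below 0 in all pairs, and 16 of the 31 members in that range were (51.6%). The median ratio there was -0.11 for the members and -0.06 for all genes. These shares describe the list and are not a test of it.

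**Figure D2:**
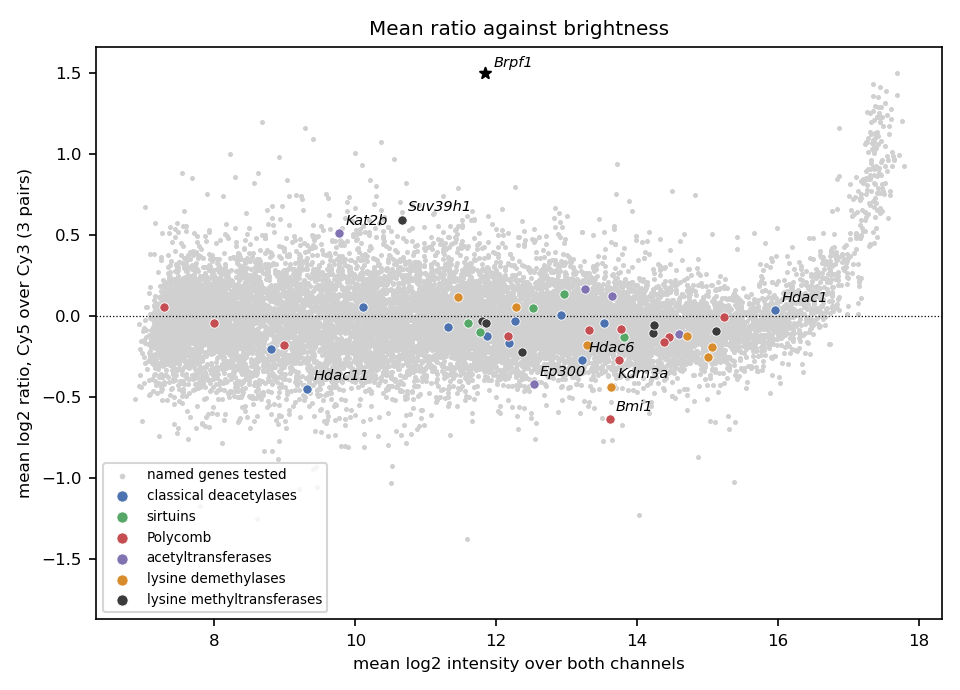
Mean log2 ratio of Cy5 over Cy3 (vertical axis, 3 pairs) against the mean log2 intensity over both channels (horizontal axis). Grey points are the 15381 tested genes with a RefSeq name, coloured points the 46 members by class, and the star is Brpf1. The ratios bend upwards at intensities where no member lies.

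The 95% interval of the ratio lay within -0.5 and 0.5 for 36 members, against 70.5% of all genes. It lay within -1 and 1 for 45 members, all but Suv39h1. The median SD over the 3 pairs was 0.12 for the members, against 0.16 for all genes. Between 12 and 16 in mean log2 intensity it was 0.12 for the members and 0.13 for all genes. Pair 2 gave the lowest of the 3 ratios for 27 of 46 members, against 44.2% of all genes, and the medians of the members were -0.05, -0.16 and -0.09 in pairs 1, 2 and 3. Over the 46 members, Pearson's r between the ratios was 0.586 for pairs 1 and 2, 0.185 for pairs 1 and 3, and -0.116 for pairs 2 and 3. Over all genes tested the same values were 0.410, 0.335 and 0.152. These values are across genes on arrays of 1 slide, and genes are not independent replicates.

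Among the 11 Polycomb genes, Bmi1 stood lowest of all 46 members. Bmi1 encodes a core subunit of canonical Polycomb repressive complex 1 that stimulates the ubiquitin ligase, and in mouse it is known for repressing the Ink4a locus and for its part in axial patterning. Its normalized intensity was 10348, 10018 and 9731 in Cy5 and 17352, 16402 and 13306 in Cy3, in pairs 1, 2 and 3. Cy5 was below Cy3 on each array, and the 2 channels did not overlap. The ratios were -0.75, -0.71 and -0.45, with a mean of -0.64 ± 0.10 (SE, n = 3, limma adjusted p = 0.0654, unadjusted p = 0.00112) and a 95% interval from -0.88 to -0.39.

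A second Bmi1 probe showed the same sizes. It had normalized intensities of 4500.4, 4923 and 4574 in Cy5 and 7352, 7792 and 6255 in Cy3. Its ratios were -0.71, -0.66 and -0.45, with a mean of -0.61, and again the channels did not overlap. Both probes were read on the same RNA and do not count as 2 replicates. The adjusted p of Bmi1 ranged from 0.0526 to 0.371 over the 11 other settings, and its ratio from -0.73 to -0.58. With the genes above an intensity of 17 left out, which held most calls, it was 0.267.

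**Figure D3:**
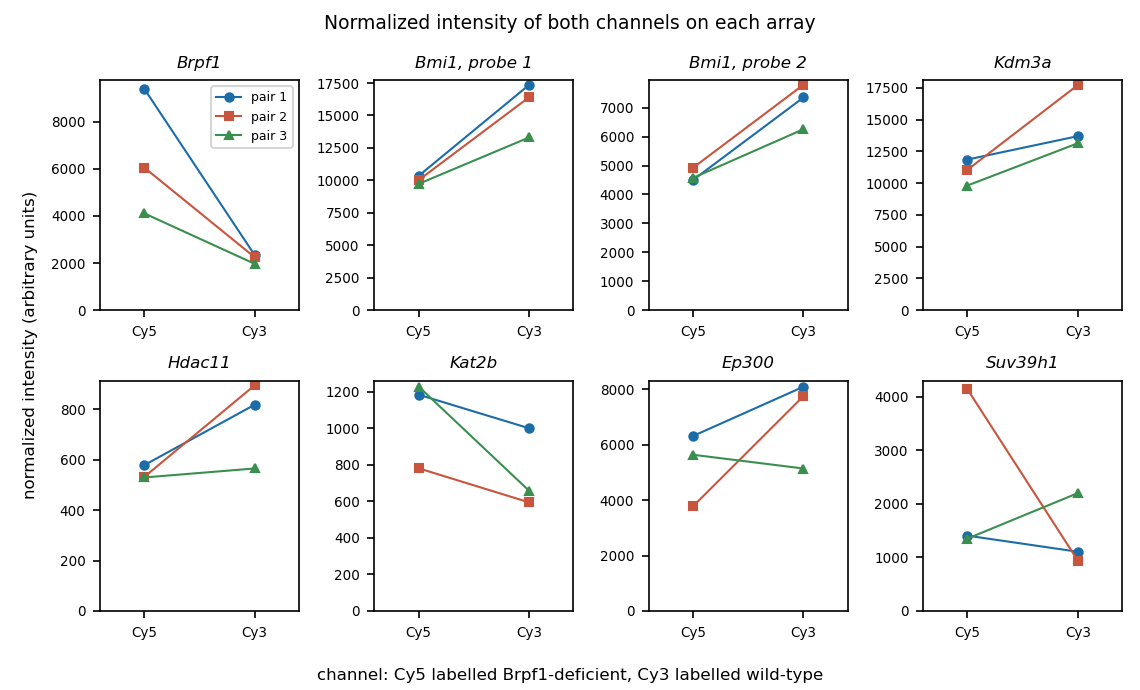
Normalized intensity in arbitrary units (vertical axis, from 0) of the Cy5 and Cy3 channels (horizontal axis) for Brpf1, both Bmi1 probes, Kdm3a, Hdac11, Kat2b, Ep300 and Suv39h1. Each line is 1 pair. The lines of both Bmi1 probes slope the same way in all 3 pairs, whereas those of Ep300 and Suv39h1 cross.

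The other Polycomb genes lay nearer to 0. Cbx2, a chromobox subunit that reads methylated lysine 27, had normalized intensities of 14879, 12403 and 10415 in Cy5 and 16268, 17964 and 11641 in Cy3. Its ratios were -0.13, -0.53 and -0.16 (mean -0.27 ± 0.11, limma adjusted p = 0.302), below 0 in each pair, although the intensities of the channels overlapped between arrays. Without pair 2 the mean was -0.14. Rnf2, the main ubiquitin ligase of the complex, had ratios of -0.14, -0.31 and -0.04 (mean -0.16 ± 0.09), whereas its paralogue Ring1 had 0.06, -0.54 and -0.07 (mean -0.18 ± 0.14). Rnf2 was below 0 in all pairs and Ring1 was not. The dim chromobox genes Cbx7 and Cbx8 averaged 0.05 ± 0.08 and -0.04 ± 0.09. Cbx7 was the only member not well above background in both channels on all arrays, with 1 array in Cy5 and 2 in Cy3.

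Of the genes of Polycomb repressive complex 2, Ezh2, Suz12 and Eed had narrow spreads, with SDs over pairs of 0.07, 0.006 and 0.07. The SDs of Ezh1 and Jarid2 were 0.13 and 0.12, near the members' median of 0.12. Ezh2, the main methyltransferase of dividing embryonic cells, had normalized intensities of 22615, 22522 and 19312 in Cy5 and 23826, 26100.0 and 20740.3 in Cy3. Its ratios were -0.08, -0.21 and -0.10 (mean -0.13 ± 0.08, limma adjusted p = 0.444). Every pair was below 0, with pair 2 the lowest. Suz12, the scaffold subunit, had ratios of -0.08, -0.09 and -0.07 (mean -0.08 ± 0.08), and Eed, which reads methylated lysine 27, averaged -0.01 ± 0.08. Ezh1, the second methyltransferase, averaged -0.12 ± 0.09 by its brightest probe, and its other probes gave -0.01 and 0.11. Jarid2, a cofactor that helps to recruit the complex, averaged -0.09 ± 0.09, with ratios of 0.04, -0.19 and -0.11. For the 11 Polycomb genes together the median ratio was -0.12 and the median log2 intensity 13.61. Of them 10 lay below 0 (90.9%, against 54.4% of all genes and 65.2% of genes between 12 and 16 in intensity). All pairs were below 0 for 6 of them (54.5%, against 23.8% of all genes and 32.9% in that range). Of all genes with a RefSeq name, 59.3% lay below 0, and 26.9% in all pairs. Ring1, Cbx7 and Cbx8 were dimmer than that range. Eed and Cbx8, counted below 0 at -0.01 and -0.04, changed sign in some settings.

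The 11 classical deacetylases held 2 genes with an unadjusted p below 0.05, a limit that 17.3% of all genes met. Hdac6, a mainly cytoplasmic deacetylase that acts on tubulin, had normalized intensities of 9670.4, 8402 and 8107 in Cy5 and 11372, 10419 and 9789 in Cy3. The ratios were close to each other, -0.23, -0.31 and -0.27, with a mean of -0.27 ± 0.08 (SE, n = 3, limma adjusted p = 0.208). Its second probe gave -0.18, -0.21 and -0.20. Cy5 was below Cy3 on every array by both probes, and the channels of the first probe did not overlap.

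Hdac11, the only class IV deacetylase, was a dim gene with normalized intensities of 579, 532 and 530.01 in Cy5 and 819, 896 and 566 in Cy3. Its ratios were -0.50, -0.75 and -0.09 (mean -0.45 ± 0.14, limma adjusted p = 0.232). The ratio of pair 3 was the nearest to 0, the channels overlapped between arrays, and without pair 2 the mean was -0.30. Hdac9, a class IIa enzyme of muscle and brain, had -0.31, -0.21 and -0.09 (mean -0.20 ± 0.09, limma adjusted p = 0.317). Hdac3, the catalytic subunit of the NCoR corepressor, had -0.15, -0.34 and -0.02 (mean -0.17 ± 0.10). Both were below 0 in all pairs by their tested probes without passing. Hdac9 was dim, at a mean log2 intensity of 8.80. Its other probe, too dim for the filter, had -0.22, 0.34 and 0.15.

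The class I enzymes Hdac1 and Hdac2, which form the core of the Sin3, NuRD and CoREST complexes, had ratios near 0. Hdac1 averaged 0.03 ± 0.08 with a 95% interval from -0.16 to 0.23, and Hdac2 averaged -0.05 ± 0.08 with an interval from -0.25 to 0.15. Hdac1 had 2 dimmer probes at -0.06 and -0.16. Its ratio depended on the scaling, with 0.37 under median centring in place of loess and -0.15 with the processed signals of the scanner software. Among the rest, Hdac10 averaged -0.12 ± 0.09, and the class IIa genes Hdac4, Hdac5 and Hdac7 averaged -0.07 ± 0.14, 0.01 ± 0.09 and -0.03 ± 0.08. The pairs of Hdac4 lay on both sides of 0, at -0.33, -0.17 and 0.28. Hdac8, a class I enzyme that deacetylates cohesin, differed most between pairs in this class, with -0.01, 0.58 and -0.40 (mean 0.06 ± 0.19). Its second, dimmer probe gave 0.15, 0.98 and -0.18, the same order of pairs.

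The 5 sirtuins, deacetylases that depend on NAD, were all within 0.2 of 0 by their tested probes. Sirt1, a nuclear enzyme that acts on histones and p53, had normalized intensities of 15715, 13245 and 12539 in Cy5 and 16517, 14742 and 14045 in Cy3. Its ratios were -0.07, -0.15 and -0.16 (mean -0.13 ± 0.08, limma adjusted p = 0.436). Sirt3, the main mitochondrial deacetylase, had -0.08, -0.06 and -0.16 (mean -0.10 ± 0.08). Both were below 0 in each pair without passing. Sirt2, a tubulin deacetylase, had 0.03, 0.06 and 0.31 (mean 0.14 ± 0.09), all above 0. Sirt7, a nucleolar enzyme, had 0.03, 0.18 and -0.06 (mean 0.05 ± 0.09), and its second, dimmer probe had 0.26, 0.79 and -0.04 (mean 0.33). Sirt6, which acts on telomeric chromatin, averaged -0.04 ± 0.11.

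Of the 5 acetyltransferases, Kat2b and Ep300 had the widest ratios. Kat2b (PCAF) had normalized intensities of 1183, 780.5 and 1228 in Cy5 and 999.7, 594 and 658 in Cy3. Cy5 was the brighter channel on each array, although the ranges of the channels overlapped. The ratios were 0.24, 0.39 and 0.90 (mean 0.51 ± 0.15, SE, n = 3, limma adjusted p = 0.208). Without pair 3 the mean was 0.32. Its paralogue Kat2a (GCN5), which shares the SAGA and ATAC complexes with it, had 0.04, -0.28 and -0.09 (mean -0.11 ± 0.10), and a second probe gave 0.07.

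Ep300 (p300), a coactivator that acetylates enhancers, had normalized intensities of 6313, 3776 and 5636 in Cy5 and 8092, 7752 and 5140 in Cy3. The ratios were -0.36, -1.04 and 0.13 (mean -0.42 ± 0.23, limma adjusted p = 0.392), on both sides of 0. Without pair 2 the mean was -0.11, and without pair 3 it was -0.70. Its paralogue Crebbp (CBP) had -0.0040, 0.47 and 0.04 (mean 0.17 ± 0.12), so that pair 2 was the lowest for Ep300 and the highest for Crebbp. Without pair 2 the mean of Crebbp was 0.016. Kat5 (Tip60), the catalytic subunit of the NuA4 complex and a MYST enzyme, had 0.11, 0.17 and 0.08 (mean 0.12 ± 0.08), above 0 in all pairs by its tested probe. A second Kat5 probe, slightly dimmer, had -0.06, 0.09 and 0.07 (mean 0.03).

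The 7 lysine demethylases had a median ratio of -0.18, which was -0.25 to -0.11 without 1 pair. Kdm3a, which demethylates lysine 9 of histone H3 and is induced by low oxygen, had normalized intensities of 11851, 11047 and 9809.7 in Cy5 and 13694, 17717 and 13135 in Cy3. The channels did not overlap, and the ratios were -0.21, -0.68 and -0.42 (mean -0.44 ± 0.11, SE, n = 3, limma adjusted p = 0.191). Kdm1a (LSD1), the demethylase of the CoREST complex, had -0.16, -0.47 and -0.14 (mean -0.26 ± 0.10, limma adjusted p = 0.293). In Kdm5b, which demethylates lysine 4, the ratios were -0.08, -0.36 and -0.14 (mean -0.19 ± 0.09), and a dimmer probe averaged 0.02. Pair 2 was the lowest in all 3 of these genes.

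Kdm4a, which acts on lysines 9 and 36, had 0.05, -0.39 and -0.20 (mean -0.18 ± 0.11). Kdm2b, which recruits a variant Polycomb complex to CpG islands, averaged -0.13 ± 0.09 by one probe, and another gave -0.15. Kdm5a averaged 0.05 ± 0.13, and pair 2 was its highest value, at 0.40. Kdm6b (JMJD3), which removes the mark that Ezh2 writes, averaged 0.12 ± 0.10. Kdm2b was below 0 in each pair by its tested probe, and the ratios of Kdm4a, Kdm5a and Kdm6b lay on both sides of 0.

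In the last class, of methyltransferases with the cofactor Wdr5, Setdb1 had the smallest p. Setdb1, which methylates lysine 9 at retroelements, had normalized intensities of 5362, 4677 and 4625 in Cy5 and 5892, 5831 and 5347 in Cy3. Its ratios were -0.14, -0.32 and -0.21 (mean -0.22 ± 0.08, SE, n = 3, limma adjusted p = 0.279), below 0 on every array, with intensities that overlapped between arrays. Ehmt1 (GLP) had -0.09, -0.0044 and -0.22, and Ehmt2 (G9a), with which it forms the main dimethylase of lysine 9, had -0.04, -0.17 and -0.06. Their means were -0.10 ± 0.09 and -0.09 ± 0.08. Wdr5, a subunit of the complexes that methylate lysine 4, averaged -0.06 ± 0.09, Ash1l, which acts on lysine 36, averaged -0.04 ± 0.12 with ratios of -0.31, 0.19 and -0.0092, and Dot1l, which methylates lysine 79, averaged -0.03 ± 0.08.

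Suv39h1, which trimethylates lysine 9 in heterochromatin near centromeres, varied more between pairs than any other member. Its normalized intensity was 1405, 4138 and 1350.4 in Cy5 and 1105, 939.7 and 2200.0 in Cy3. Pair 2 in Cy5 was the highest value and pair 2 in Cy3 the lowest. The ratios were 0.35, 2.14 and -0.70 (mean 0.59 ± 0.53, limma adjusted p = 0.58), with a 95% interval from -0.75 to 1.94. Without pair 2 the mean was -0.18. Suv39h1 had 1 probe, so no other probe bears on this.

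Suv39h1, Hdac8 and Hdac6 are X-linked, and the embryo pairs differed in Y-linked RNA. Pair 2, in which Suv39h1 and Hdac8 had their highest ratios, was the pair with Ddx3y and Eif2s3y near 0, although Uty had 0.85 there. Hdac6 had its lowest ratio in pair 2, at -0.31, and its highest in pair 1, at -0.23. The inactive X transcript Xist had ratios of -0.04, 0.29 and 2.69. The related demethylases Kdm5c and Kdm6a, X-linked genes known to escape inactivation and chosen after their values were seen, had 0.06, -0.14 and 0.38, and -0.17, 0.20 and 0.54. Both were highest in pair 3, as Xist was, and Suv39h1 and Hdac8 were lowest there. Over all 578 X-linked genes tested the medians were -0.05, -0.09 and 0.01 in pairs 1, 2 and 3, against -0.03, -0.09 and -0.01 over 14797 autosomal genes. The part of embryo sex in the members' ratios was not tested.

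Paralogues were set side by side by their difference within each pair, in 8 comparisons. Kat2b minus Kat2a was 0.20, 0.68 and 0.99 (mean 0.62 ± 0.40, SD, n = 3; exact sign-flip test, two-sided, p = 0.25, adjusted over the comparisons 0.667). Cbx2 minus Cbx8 was -0.20, -0.39 and -0.11 and Hdac2 minus Hdac1 -0.10, -0.01 and -0.13, each with the same exact permutation p. With 3 pairs 0.25 is the smallest p this test can give. The other 5 differences (Ezh1 and Ezh2, Rnf2 and Ring1, Ep300 and Crebbp, Kdm5b and Kdm5a, Ehmt1 and Ehmt2) had both signs among the pairs.

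Several probes passed the filter for 14 members, and their mean ratios lay on both sides of 0 for 7 of them (Hdac1, Sirt6, Ezh1, Kat2a, Kdm5b, Ehmt1 and Dot1l). In these 7 the probes differed by 0.15 to 0.24. The other 7 kept 1 sign, and among them the probes of Bmi1 and Kdm2b differed by 0.03 and those of Sirt7 by 0.28. Dot1l had 2 probes named only in the deposited table, at -0.07 and 0.15, and the first of them was brighter than the probe tested.

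The authors' deposited table lists 48 of the members' probes, with its own log2 ratios, whose direction is not stated. Over 22165 shared probes that passed the filter they correlated at -0.920 with the ratios computed here, so they were read as Cy3 over Cy5. Brpf1 is at -1.55 there as deposited, with an authors' adjusted p of 0.289. Which genotype each channel held was not tested. Turned to Cy5 over Cy3, all 33 tested probes in the table had the same sign as the ratio here. The table describes the same arrays and was turned by these ratios, so the match of signs is no separate evidence. The share of matching signs over all shared probes is not given here. For Bmi1 the authors' deposited table gives 0.64 for the brighter probe and 0.61 for the other, as deposited, and an adjusted p of 0.324 for each. That was the smallest adjusted p among the members in the authors' deposited table.

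Other genes of the same machinery were read from 5 lists, of which 94 of 96 genes were tested and none passed. At an unadjusted p below 0.05 in limma there were 1 above and 11 below 0. Of all genes, 17.3% met this limit (8.23% above and 9.12% below 0). The median ratio of the 94 genes was -0.06. In the list of deacetylase corepressor complexes and remaining sirtuins (24 tested), Sirt4, a mitochondrial sirtuin, had -0.50, -0.62 and -0.42 (mean -0.51 ± 0.08, SE, limma adjusted p = 0.0823). Rcor2, a CoREST subunit of neural progenitors, had -0.22, -0.71 and -0.56 (mean -0.50 ± 0.12, limma adjusted p = 0.167), and Chd4, the NuRD remodeller, averaged -0.25 ± 0.08. All 3 were below 0 in each pair without passing.

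Of 20 other Polycomb subunits, Cbx6 averaged -0.34 ± 0.08 (limma adjusted p = 0.167), Phf1 -0.32 ± 0.17 and Rbbp7, a histone chaperone shared with deacetylase complexes, 0.21 ± 0.08. Of 15 other demethylases, Kdm2a averaged -0.34 ± 0.15, Jmjd1c -0.20 ± 0.08 and Riox1 0.11 ± 0.08. Of 25 other methyltransferases and cofactors, Setd2, which trimethylates lysine 36, averaged -0.26 ± 0.08 (limma adjusted p = 0.220), Setd7 -0.26 ± 0.09 and Nsd1 -0.23 ± 0.08. These lists had medians from -0.05 to -0.03, near that of all genes.

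The list of DNA methylation genes had the lowest median of the 5, at -0.19, with 9 of 10 below 0 (all genes, 54.4%). In all pairs 7 were below 0 (all genes, 23.8%). Tet2, which oxidizes methylcytosine, averaged -0.45 ± 0.14 (limma adjusted p = 0.222), Dnmt3a, a de novo methyltransferase, -0.33 ± 0.12 and Dnmt1, the maintenance methyltransferase, -0.24 ± 0.09 (limma adjusted p = 0.279). No member of the list passed, and the median describes 10 genes with no test.

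**Figure D4:**
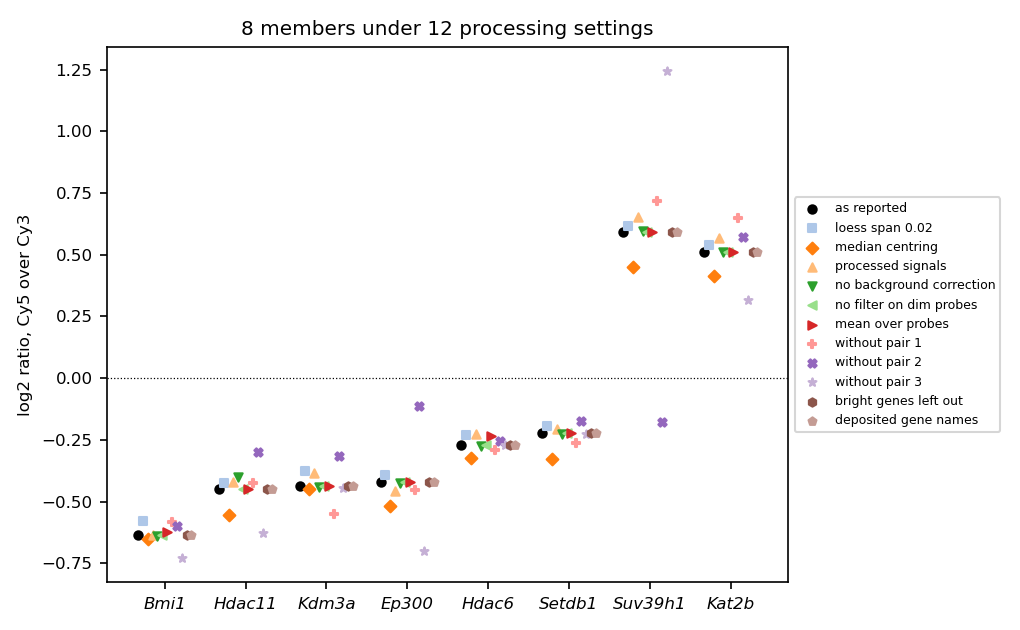
Log2 ratio of Cy5 over Cy3 (vertical axis) of Bmi1, Hdac11, Kdm3a, Ep300, Hdac6, Setdb1, Suv39h1 and Kat2b (horizontal axis) as reported (black) and under each other setting (symbols in the legend). Each gene kept its sign under every setting shown except Suv39h1, which was at -0.18 without pair 2.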

How the data were processed

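The input was 350 ng of total RNA per labelling with amplification and Cy dyes, per the labels' protocols. Feature Extraction 10.7.3.1 read the scans, per the file headers, and since 1 slide and 1 scan hold all 3 arrays, no batch test was possible. The deposited intensity values used were median brightness of spot and local background, on a linear scale. The files also hold processed signals and log10 ratios of Cy5 over Cy3, per the file headers. The authors' deposited table holds log2 ratios, p-values and scores (moderated t and log odds) of 40000 probes. The submitters' processing notes name limma, with settings not given in the sources used here.

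Background was corrected with normexp (offset 50), ratios were normalized within arrays by loess (span 0.3), outlier spots were left out and spots of a probe averaged. A probe was kept where 1 channel was well above background on 2 or more arrays in at least 0.5 of its spots (31603 of 55681), and the brightest stood for each gene. Ratios were tested against 0 with limma 3.58.1 in R 4.3.3 (two-sided, Benjamini-Hochberg over 23555 genes, threshold 0.05). The script was tested on simulated data. Names came from the GRCm38.p6 RefSeq table, which gave 1 gene for 27656 probes, and no coordinates were taken from it. Per-pair values were given for the 4 members of each class with the smallest p and for some others, chosen after their values were seen. Up to 3 genes of each related list were named by the smallest p. The members and lists were chosen with earlier results of these data known. The alternatives were another loess span, median centring, processed signals, no background correction, no filter, means over probes and omission of each pair. Omission of bright genes and naming by the deposited table were added after the data were seen. The number of arrays limits precision.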

Additional observations from a re-analysis of the deposited data

How the results depend on the processing

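Each array holds both RNAs of a pair as a ratio, so the tests of ratios against 0 were paired, and no further replicate block can be fitted. The count of members past the threshold was 0 in all 12 settings, with Bmi1 at the smallest p in each (limma; 3 to 8 members at an unadjusted p below 0.05, against 6 as reported, with 3 under median centring and 3, 4 and 6 without pair 1, 2 and 3). The count of all genes past the threshold was 326 as reported (304 higher, 22 lower), 0 with a loess span of 0.02, with processed signals or without bright genes, 651 with median centring (626 higher, 25 lower), 201 with means over probes (196 higher, 5 lower), and 0 without any 1 pair (limma; 2145 to 3831 at an unadjusted p below 0.05, and 3508, 3453 and 3573 in the other settings with no call); the cause was not tested. Brpf1 kept its ratio but not its call at 1.52 (span 0.02), 1.56 (processed signals), 1.499 (limma adjusted p = 0.055 with means over probes and 0.267 without bright genes), and 1.25 to 1.72 without 1 pair.

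The median of the members stayed between -0.11 and -0.036 in all 12 settings. The median of classical deacetylases was -0.20 with median centring and -0.15 with processed signals, and without 1 pair it was -0.13 to -0.042. The acetyltransferase median was 0.016 to 0.14, the methyltransferase median -0.15 to -0.058, the demethylase median -0.25 to -0.11, the sirtuin median -0.11 to 0.046 and the Polycomb median -0.15 to -0.053 without 1 pair. Signs changed in members within 0.2 of 0 and in Suv39h1, where no call was at stake. With a span of 0.02, Eed had 0.078, Hdac2 0.0069, Hdac7 0.00081 and Wdr5 0.0061. With means over probes, Hdac1 had -0.063 and Sirt6 0.046. With median centring, Eed had 0.22, Ehmt2 0.12, Hdac5 -0.065, Hdac8 -0.080, Kat2a 0.013, Kdm2b 0.018, Kdm5a -0.056, Kdm5b 0.0047, Kdm6b -0.014, Sirt7 -0.046 and Wdr5 0.0094. Cbx7 had -0.0023 without background correction and -0.0064 with processed signals, which also gave Eed 0.068, Ehmt1 0.0053, Hdac1 -0.15 and Kdm2b 0.00013. Without 1 pair the ranges of the members that crossed 0 were Ash1l -0.16 to 0.091, Cbx8 -0.098 to 0.011, Dot1l -0.070 to 0.024, Eed -0.038 to 0.033, Hdac4 -0.25 to 0.059, Hdac5 -0.037 to 0.070, Hdac8 -0.21 to 0.28, Kdm5a -0.12 to 0.14, Sirt6 -0.16 to 0.071, Sirt7 -0.015 to 0.10 and Suv39h1 -0.18 to 1.24.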
